A study of Drosophila melanogaster with 4 samples.

Results

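Cytochrome P450 genes were taken from the deposited table as all rows whose FlyBase symbol reads Cyp, a family number and a lower-case letter, leaving out Cyp4d21, which gave 83 of 15682 genes. They were measured in poly(A) RNA from heads of Drosophila melanogaster, in 2 control libraries labelled w1118, flies not expressing MJDtr-78Q, and 2 libraries of flies expressing MJDtr-78Q. The transgene encodes a shortened human ataxin-3 whose polyglutamine stretch is lengthened, as in Machado-Joseph disease. The sources used here do not give the driver or the cells in which the transgene was expressed, nor the age, sex or number of flies. Nothing in the labels says that the libraries came from separate flies, so a p-value measures only the spread between these libraries, which may be technical. The series title concerns Golgi outposts in dendrites. The P450 genes are described here for how a large enzyme superfamily stood in these heads.

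P450 enzymes carry a heme and insert an oxygen atom into small lipophilic molecules. The number in a name is the family and the letters the subfamily, both assigned by protein similarity. In insects the families fall into a CYP2, a CYP3, a CYP4 and a mitochondrial clan. Some members make or break down the moulting hormone ecdysone, others build cuticular hydrocarbons, and many, above all in the CYP3 clan, oxidise plant toxins and insecticides. Enzymes in the endoplasmic reticulum take electrons from the reductase Cpr, and mitochondrial ones from a ferredoxin and its reductase.

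No P450 gene passed the test between MJDtr-78Q and control heads, but the members were spread widely. Of the 63 members expressed highly enough to test, 8 had both MJDtr-78Q libraries below both controls with means at least 2-fold apart, which was 12.7% of them against 2.08% of all 9049 tested genes. In the other direction 3 members (4.76%) lay above by the same measure, against 3.08% of all genes. With no scaling between the groups, 49 were lower and 0 higher, against 75.7% of all genes lower. The 8 lower members were Cyp6a8, Cyp9c1, Cyp6d5, Cyp4d1, Cyp6g1, Cyp4ac2, Cyp6a17 and Cyp6a2, and the 3 higher ones Cyp4s3, Cyp4d8 and Cyp4e3, all of family 4. MJDtr-78Q library 1 decided much of this. Without it 3 members were lower by 2-fold or more (Cyp6a8, Cyp9c1 and Cyp4ac2), against 3.44% of all genes, and without MJDtr-78Q library 2 there were 15, against 5.78%.

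All values below are log2(count + 1) after quantile normalization of the 4 libraries together, unless a level per length is named, and differences are MJDtr-78Q minus control with n = 2 per group. In limma's test with Benjamini-Hochberg adjustment over all tested genes, 0 of 63 members and 0% of all genes passed 0.05, with a lowest adjusted p of 0.612 among members and 0.512 over all genes. At an unadjusted p under 0.05, 7 members were lower (11.1%, against 2.42% of all genes) and 4 were higher (6.35%, against 3.46%). For a single gene the smallest exact permutation p that 2 against 2 libraries allow is 0.333. Over the tested members the median difference was -0.13, with quartiles of -0.51 and 0.21, and over all tested genes it was -0.024, with quartiles of -0.23 and 0.19. Differences below 0 were found in 38 of 63 members (60.3%) and in 53.4% of all genes. Without MJDtr-78Q library 1 they were found in 30 of 64 members, against 51.0% of all genes, and the members' median was 0.045.

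Of the 83 members 20 did not reach the minimum of a mean of 10 counts. Cyp310a1, Cyp316a1, Cyp6a18 and Cyp12d1-d were listed at 0 in all 4 libraries. The others not tested were Cyp303a1, which is needed for sensory bristles, Cyp304a1, Cyp308a1, Cyp312a1, Cyp313a2, Cyp313a3, Cyp313a4, Cyp313a5, Cyp4ad1, Cyp4d14, Cyp4g1, Cyp6a15Psi, Cyp6a16, Cyp6a19, Cyp6g2 and Cyp6t3, which acts in ecdysone synthesis. Cyp4g1, the oenocyte enzyme that forms cuticular hydrocarbons, was among them, at 0.12 and 0.90 in the controls, against 2.98 and 2.02 with MJDtr-78Q. Its MJDtr-78Q values were the higher ones, at a level too low to test. The annotation used for counting is not given in the sources used here. Whether reads of Cyp4g1 were lost in counting could therefore not be checked. Cyp12d1-d and the tested Cyp12d1-p are tandem copies of nearly the same sequence, so their separate counts are uncertain.

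**Figure D1:**
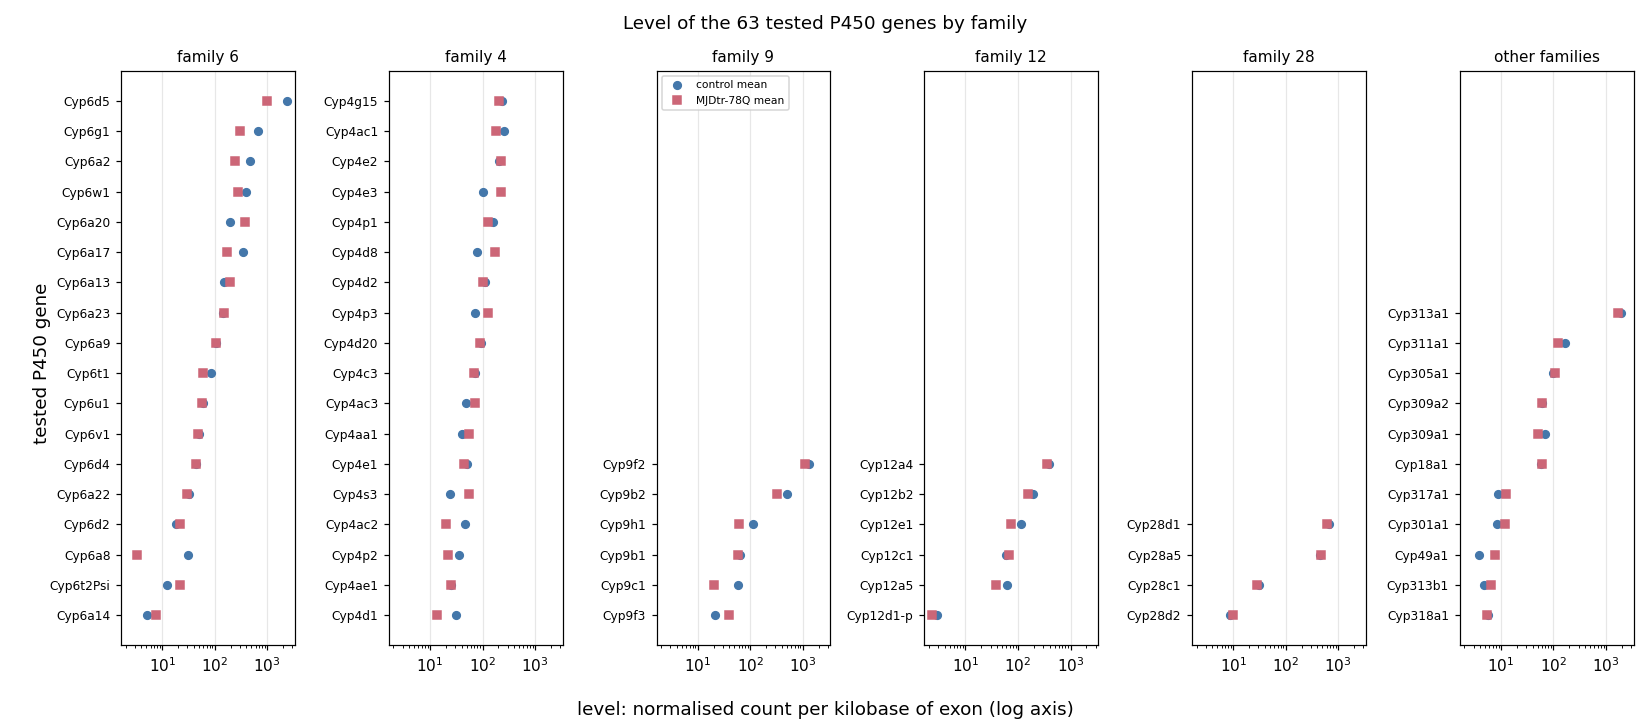
Mean level of each tested P450 gene in control (circles, n = 2) and MJDtr-78Q heads (squares, n = 2), in normalised counts per kilobase of exon on a log axis, by family. Cyp313a1, Cyp6d5 and Cyp9f2 stand at the top, and Cyp6a8 shows the widest gap between its groups.

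Levels per kilobase of exon were very uneven. The plot of levels by family shows a few abundant genes and a long tail. Cyp313a1 had the highest level per length, 1815 normalised counts per kilobase as a mean of the 4 libraries, followed by Cyp6d5 at 1667 and Cyp9f2 at 1208. Cyp28d1 came next at 644 and Cyp6g1 at 486. These 5 genes made up 48.8% of the summed level per length of all 83 members. Among all tested genes Cyp313a1 stood at percentile 97.2 of level per length, and 29 of the 63 tested members stood above percentile 50. By family, members of family 6 held 34.8% of the summed level per length, family 9 15.4%, the Cyp313 family 15.3%, family 4 14.7%, family 28 9.52% and family 12 6.35%. As a share of all normalised counts, the 83 members took 0.480% and 0.523% in the controls, against 0.327% and 0.470% with MJDtr-78Q, so MJDtr-78Q library 1 was the lowest.

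The 5 most abundant members per length had differences below 0 of very different size, with an exception for Cyp28d1 when a library was left out. Cyp313a1 (FBgn0038236) was at 11.53 and 11.67 in the controls, against 11.49 and 11.39 with MJDtr-78Q, with a difference of -0.16 (95% interval -0.73 to 0.42). The 2 groups were next to each other without overlap, and the interval stays short of 2-fold. Cyp9f2 was at 11.10 and 11.20 in the controls, against 10.77 and 11.11 with MJDtr-78Q (difference -0.21, SE 0.24), with overlapping groups. Cyp28d1 was at 9.996 and 10.16 in the controls, against 9.61 and 10.26 with MJDtr-78Q (difference -0.14, SE 0.31), again with overlap, and its difference was 0.18 without MJDtr-78Q library 1. Cyp6d5 and Cyp6g1, by contrast, were lower by 2-fold or more with groups apart.

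**Figure D2:**
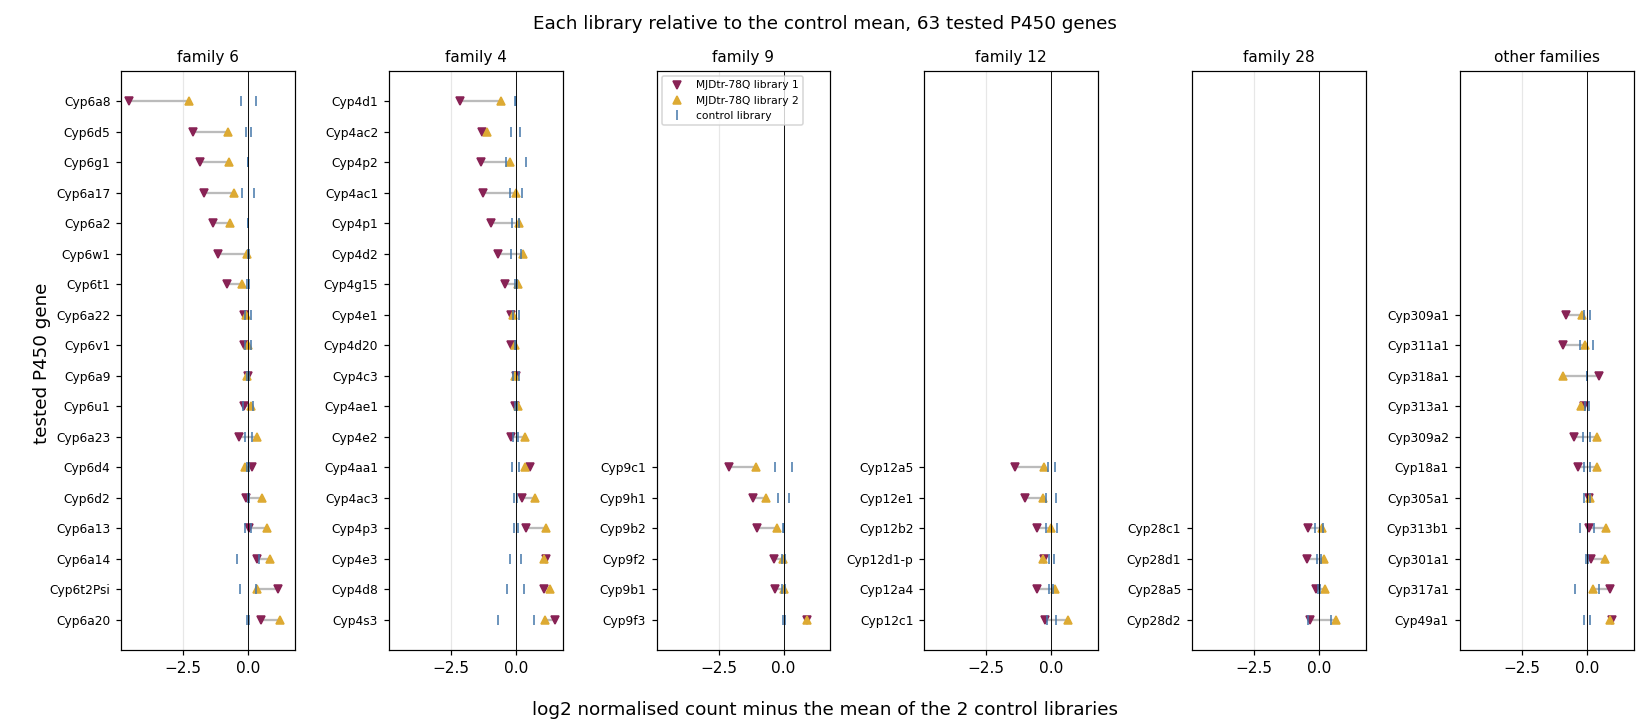
Each library as log2 normalised count minus the mean of the 2 control libraries, for the 63 tested P450 genes by family, with triangles for the 2 MJDtr-78Q libraries and ticks for the 2 control libraries. Library 1 (downward triangle) lies left of library 2 for 51 of the 63 genes.

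Family 6 is the largest of the CYP3 clan in flies and holds most of the genes studied for insecticide resistance. It has 24 members here, of which 18 were tested. Of these, 11 were below and 7 above 0, with a median difference of -0.053. Groups did not overlap for 7 lower members and 2 higher ones, against 15.5% and 14% of all tested genes in the same directions. Lower by 2-fold or more with groups apart were 5 members and higher 0, against 2.08% and 3.08% of all tested genes. In the plot of differences by family, family 6 has a long lower tail and a body of genes near 0.

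Cyp6a8 (FBgn0013772, 2R, positions 10774675 to 10776514 in the deposited table, the source of all positions here, whose genome build the sources used here do not give) is inducible by phenobarbital and caffeine. It was at 6.07 and 5.49 in the controls, against 1.2 and 3.49 with MJDtr-78Q, so both MJDtr-78Q libraries lay below both controls, by at least 2.00. The group values were 5.78 ± 0.41 and 2.35 ± 1.62 (SD, n = 2 each). Its difference of -3.44 (SE 0.85, 95% interval -5.65 to -1.23) had a limma adjusted p = 0.628. At counts this low the size depends on the pseudocount, and it was -2.59 with a pseudocount of 5 and -3.64 with 0.5. It was -2.32 with MJDtr-78Q library 1 left out and -4.73 with library 2 left out.

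Cyp6d5 (FBgn0038194, 3R, positions 9854951 to 9857206) was the member with the highest control level per length. Its values were 11.82 and 12.02 in the controls, against 9.81 and 11.16 with MJDtr-78Q, a difference of -1.43 (SE 0.49, limma adjusted p = 0.763). Both MJDtr-78Q libraries were lower, library 1 by far the more, and the difference was -0.76 with MJDtr-78Q library 1 left out and -2.11 with library 2 left out.

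Cyp6g1 (FBgn0025454, 2R, positions 8073167 to 8075936) confers resistance to DDT and neonicotinoids when its expression is raised. It was at 10.45 and 10.45 in the controls, against 8.61 and 9.73 with MJDtr-78Q, a difference of -1.28 (SE 0.42, limma adjusted p = 0.731). The controls almost coincided and both MJDtr-78Q libraries lay under them. Leaving out MJDtr-78Q library 1 gave -0.73. A 94-base stretch of its exons is shared with Cyp6g2 on the other strand, and the sources used here do not say whether counting used strand.

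Cyp6a2 (FBgn0000473, 2R, positions 2667253 to 2668996) is inducible by phenobarbital and can metabolise insecticides. It was at 9.64 and 9.63 in the controls, against 8.29 and 8.95 with MJDtr-78Q, a difference of -1.02 (SE 0.30, limma adjusted p = 0.689). Cyp6a17 (FBgn0015714, 2R, positions 10761458 to 10763063), which affects temperature preference, was at 8.99 and 9.42 in the controls, against 7.52 and 8.67 with MJDtr-78Q. Its difference was -1.11 (SE 0.45, limma adjusted p = 0.863), and the nearest libraries of the 2 groups were 0.32 apart; leaving out MJDtr-78Q library 1 gave -0.53. In both genes MJDtr-78Q library 1 was the lower one. The difference of Cyp6a2 fell short of 2-fold with scaling by the median of gene ratios (-0.93) and with upper-quartile scaling (-0.99).

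Cyp6a20 stood on the other side of control, though with no scaling between groups its difference was -0.31. This gene, known for its effect on male aggression, was at 8.43 and 8.53 in the controls, against 8.98 and 9.69 with MJDtr-78Q (difference 0.86, SE 0.32, limma adjusted p = 0.824), with both MJDtr-78Q libraries above both controls. Leaving out MJDtr-78Q library 2 gave 0.50. The annotated pseudogene Cyp6t2Psi was also above, by 0.75 (SE 0.47), with the nearest libraries only 0.022 apart. It was at 0.34 without MJDtr-78Q library 1, at 0.42 without control library 2 and at -0.46 with no scaling between groups. Among the remaining family 6 members tested, Cyp6w1 differed by -0.60 (SE 0.41) and Cyp6t1 by -0.51 (SE 0.28), each with groups that did not overlap. Without MJDtr-78Q library 1 these were -0.051 and -0.23, and without library 2 they were -1.14 and -0.80. The other 9 had overlapping groups and differences from -0.13 for Cyp6a22 to 0.59 for Cyp6a14. Cyp6a23 was closest to no difference, at 0.00 with a 95% interval of -0.84 to 0.84.

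**Figure D3:**
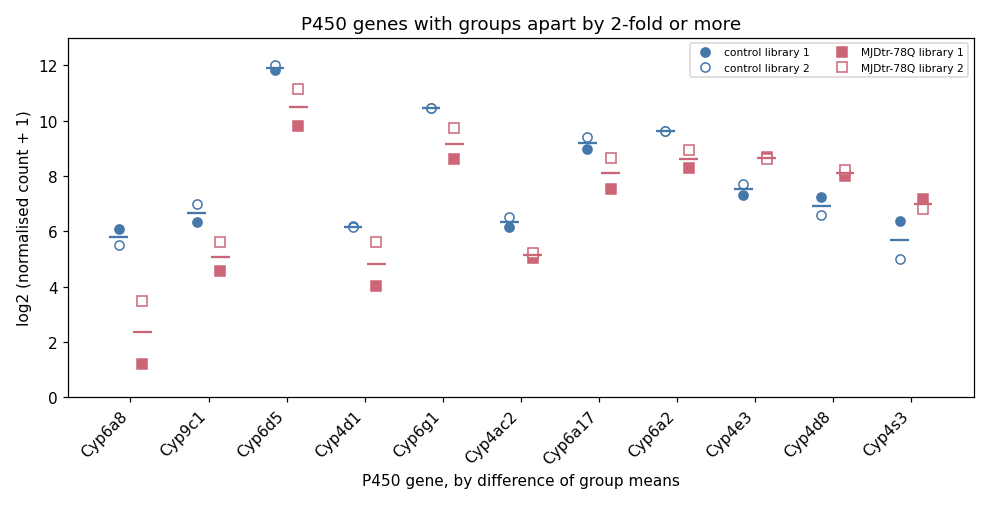
log2 (normalised count + 1) in each of the 4 libraries for the 11 P450 genes whose groups were apart by 2-fold or more, with short lines at group means (n = 2). Control libraries are circles and MJDtr-78Q libraries squares, filled for library 1 and open for library 2; in all 8 lower genes MJDtr-78Q library 1 is below library 2.

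Family 4, the main family of the CYP4 clan, whose better known members act on fatty acids and hydrocarbons, has 21 members here, 18 of them tested. It was split, with 10 below 0 and 8 above, and a median difference of -0.068. Groups did not overlap for 3 lower and 6 higher members of 18, against 15.5% and 14% of all tested genes. With groups apart by 2-fold or more, 2 were lower and 3 higher, against 2.08% and 3.08% of all tested genes. All 3 P450 genes higher by 2-fold or more were of this family.

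Cyp4e3 (FBgn0015035, 2L, positions 9747838 to 9750071) was at 7.31 and 7.72 in the controls, against 8.70 and 8.60 with MJDtr-78Q, a difference of 1.13 (SE 0.25, limma adjusted p = 0.612). Cyp4d8 (FBgn0015033, 3L, positions 7486656 to 7489279) was at 7.24 and 6.58 in the controls, against 7.98 and 8.23 with MJDtr-78Q, a difference of 1.2 (SE 0.31, limma adjusted p = 0.65). For these genes the 2 MJDtr-78Q libraries were closer to each other than the 2 controls were. Each fell short of 2-fold with 1 of the controls left out. Cyp4e3 was at 0.93 without control library 1 and 1.35 without control library 2. Cyp4d8 was at 1.54 without control library 1 and 0.87 without control library 2. With no scaling between the groups, a setting in which the median of all genes was -1.24, the differences of Cyp4e3 and Cyp4d8 turned to -0.066 and -0.020.

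Cyp4s3 (FBgn0030615, X, positions 15007334 to 15010572) was at 6.36 and 4.99 in the controls, against 7.17 and 6.82 with MJDtr-78Q, a difference of 1.32 (SE 0.51, limma adjusted p = 0.843). Its 2 controls were farther apart than the nearest libraries of the 2 groups. The difference was 0.63 without control library 2 and 2.01 without control library 1. With no scaling between groups it was 0.060. Part of its exons (461 bases) overlap Rab3-GEF on the other strand. Smaller differences above 0 without overlap were measured for Cyp4p3 (0.77, SE 0.33), Cyp4ac3 (0.50, SE 0.28) and Cyp4aa1 (0.45, SE 0.24). With no scaling between groups these turned to -0.46, -0.75 and -0.81. Leaving out MJDtr-78Q library 2 gave 0.38 for Cyp4p3 and 0.25 for Cyp4ac3.

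Lower in the same family were Cyp4d1 and Cyp4ac2. Cyp4d1 (FBgn0005670, X, positions 2053174 to 2056160) was at 6.18 and 6.15 in the controls, against 4.01 and 5.60 with MJDtr-78Q, a difference of -1.36 (SE 0.57, limma adjusted p = 0.909), which was -0.56 with MJDtr-78Q library 1 left out and -2.18 with library 2 left out. Cyp4ac2 (FBgn0031694, 2L, positions 5266391 to 5268455) was at 6.15 and 6.50 in the controls, against 5.04 and 5.21 with MJDtr-78Q, a difference of -1.20 (SE 0.28, limma adjusted p = 0.617). Of the 8 lower genes Cyp4ac2 had the closest pair of MJDtr-78Q libraries, 0.17 apart. Cyp4d20 differed by -0.11 (SE 0.22), with groups that just did not overlap, and by -0.033 without MJDtr-78Q library 1. The other 9 tested members had overlapping groups, with differences from -0.79 for Cyp4p2 to 0.092 for Cyp4e2. Among them Cyp4d2 and Cyp4ae1 share most of their exons with an antisense RNA gene, asRNA:CR44690, so their counts may be mixed with its own. The most abundant gene of the family per length, Cyp4g15, a relative of Cyp4g1 known from the nervous system, differed by -0.17 (SE 0.27) with overlapping groups, and by 0.079 without MJDtr-78Q library 1.

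Among families with at least 3 tested genes, 9 and 12 had the largest shares of members below 0. In family 9, of the CYP3 clan, 5 of 6 tested genes were below 0, with a median of -0.42. In the mitochondrial family 12, 5 of 6 tested genes were below 0, with a median of -0.29. Each of the 2 families had 3 lower members without overlap between groups, against 15.5% of all tested genes.

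Cyp9c1 (FBgn0015040, 2R, positions 20518585 to 20520446) was at 6.33 and 7.0 in the controls, against 4.55 and 5.60 with MJDtr-78Q, a difference of -1.59 (SE 0.47, limma adjusted p = 0.689). An antisense RNA gene, asRNA:CR43787, covers 1711 bases of its exons, so the counts of the pair may be mixed. Cyp9h1 was at 7.33 and 7.74 in the controls, against 6.35 and 6.86 with MJDtr-78Q (difference -0.93, SE 0.30), and Cyp9b2 differed by -0.64 (SE 0.33), or by -0.26 without MJDtr-78Q library 1. Its neighbour Cyp9b1 differed by -0.16 (SE 0.24), with overlap. Cyp9f3 alone in the family was above 0 (-0.37 with no scaling between groups), at 5.42 and 5.49 in the controls, against 6.35 and 6.36 with MJDtr-78Q, a difference of 0.90 (SE 0.24, limma adjusted p = 0.66). It lies beside Cyp9f2, whose difference was -0.21.

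In family 12, Cyp12a5 was at 6.72 and 6.98 in the controls, against 5.44 and 6.58 with MJDtr-78Q (difference -0.84, SE 0.44), and Cyp12e1 differed by -0.66 (SE 0.32). Without MJDtr-78Q library 1 these differences were -0.27 and -0.33, and without library 2 they were -1.41 and -0.99. Cyp12a4, the most abundant of the family per length and known for resistance to lufenuron, had overlapping groups (difference -0.21, SE 0.32). Without MJDtr-78Q library 1 its difference was 0.15. The low Cyp12d1-p, which is linked to DDT resistance, differed by -0.29 (SE 0.45) without overlap, Cyp12b2 by -0.29 (SE 0.31) and Cyp12c1 by 0.19 (SE 0.37).

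No member of the smaller families was lower or higher by 2-fold or more with groups apart. All 4 members of family 28 had overlapping groups, from -0.17 (SE 0.32) for Cyp28c1 to 0.15 (SE 0.59) for Cyp28d2. The difference of Cyp28c1 was 0.094 without MJDtr-78Q library 1. Cyp309a1 differed by -0.50 (SE 0.31) without overlap (-0.18 without MJDtr-78Q library 1), and its neighbour Cyp309a2 by -0.046 (SE 0.37). Cyp18a1, which inactivates ecdysteroids, differed by 0.024 (SE 0.33) and Cyp305a1 by 0.12 (SE 0.23). The mitochondrial Cyp49a1 was at 3.45 and 3.69 in the controls, against 4.55 and 4.45 with MJDtr-78Q (difference 0.93, SE 0.40, limma adjusted p = 0.912), and Cyp301a1, which acts in cuticle formation, differed by 0.43 (SE 0.39), both above control without overlap. With no scaling between groups Cyp49a1 differed by -0.21, and the deposited values of Cyp301a1 were 4.73 and 4.65 in the controls, against 3.70 and 4.20 with MJDtr-78Q, so both genes turned. Leaving out MJDtr-78Q library 2 gave 0.14 for Cyp301a1. Cyp311a1 differed by -0.48 (SE 0.38), Cyp318a1 by -0.22 (SE 0.66), Cyp317a1 by 0.57 (SE 0.46) and Cyp313b1 by 0.40 (SE 0.52), with overlapping groups.

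**Figure D4:**
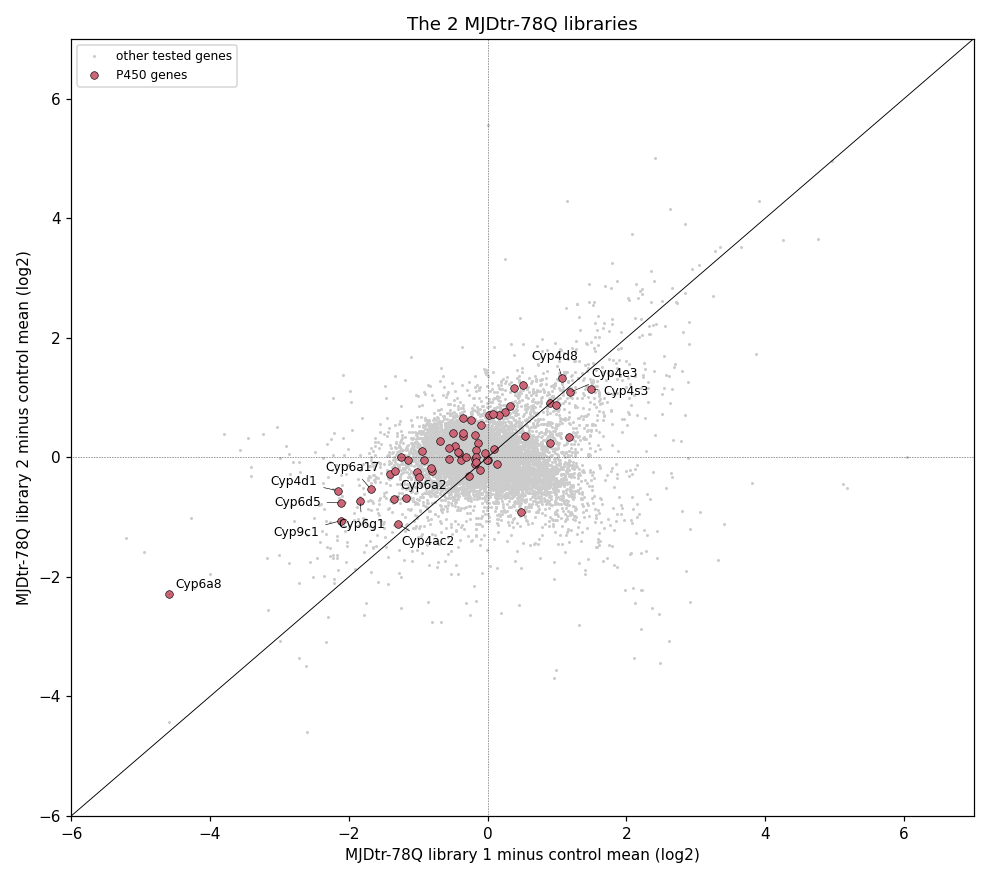
MJDtr-78Q library 1 (horizontal) against library 2 (vertical), each minus the control mean in log2, for the P450 genes (circles) and the other tested genes (dots), with the line of equal values. Most P450 genes lie above the line, where library 1 is lower than library 2; the axes share the same controls, so position along the line is no sign of agreement.

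The 2 MJDtr-78Q libraries differed for these genes in one direction. Library 1 was below library 2 for 51 of 63 tested members (81%), against 53.6% of all tested genes, and by 2-fold or more for 12 (19%), against 8.74%. The median of library 2 minus library 1 was 0.53 over the members and 0.071 over all tested genes, while control library 2 minus control library 1 gave 0.10 and 0.018. Relative to the control mean, the members' median was -0.27 in MJDtr-78Q library 1 and 0.078 in MJDtr-78Q library 2. By family the corresponding medians were -0.17 and -0.052 in family 6, -0.18 and 0.095 in family 4, -0.70 and -0.15 in family 9, -0.56 and -0.15 in family 12, and -0.40 and 0.21 in family 28. The plot of the 2 MJDtr-78Q libraries shows the members shifted to the side where library 1 is lower.

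The libraries themselves also stood apart. Deposited values, which had been made equal within each group, summed after back-transformation to 7147867 and 7147717 counts in control and 3111583 and 3111393 in MJDtr-78Q. Across tested genes, which are not independent replicates, the control pair correlated at a Pearson r of 0.975 and the MJDtr-78Q pair at 0.91. Head markers were present in all libraries. Photoreceptor markers summed to 123218 to 123615 normalised counts in control and 67158 to 83150 in MJDtr-78Q, with 6 of 7 below 0. Antennal and taste organ markers summed to 4071 and 5694 in control and to 1863 and 4108 in MJDtr-78Q libraries 1 and 2, with 4 of 7 below 0. Fat body markers summed to 138089 to 145713 in control and to 119500 and 148898 in MJDtr-78Q libraries 1 and 2, with 6 of 9 below 0. The sums of the last 2 lists were lowest in MJDtr-78Q library 1, and 53.4% of all tested genes were below 0. Obp19d gave most of the antennal sum, and Yp1, Yp2 and Yp3 most of the fat body sum. Obp19d, Orco, Obp83b, Ir25a, Ir76b, Yp2, Yp3, fit, to and apolpp were lowest in MJDtr-78Q library 1. Obp83a, lush and Yp1 were lowest in control library 2 and tobi in MJDtr-78Q library 2. Lsp2 and Fbp1 were highest in MJDtr-78Q library 1. Neuron markers summed highest in MJDtr-78Q library 1, at 28180 against 13769 to 18447 in the others. Muscle markers did too, at 66731 against 34324 to 42621, but not gene by gene. Mhc and Act88F were highest in MJDtr-78Q library 1, while up, TpnC41C and Mlc2 were highest in MJDtr-78Q library 2. In bulk RNA fewer cells of a type and less RNA per cell cannot be told apart, and the part of these tissues in the P450 values was not tested. Of the oenocyte markers only FASN2 was high enough to test, at 7.10 and 5.07 in the controls, against 8.62 and 7.24 with MJDtr-78Q, and Fad2 was listed at 0 in all 4. Gut markers summed to 97.3 and 98.1 in the controls and to 30.8 and 133 in MJDtr-78Q libraries 1 and 2, with the protease gene Jon65Aiii listed at 0 in 3 libraries and at 4.65 in MJDtr-78Q library 2, and the Malpighian tubule marker Uro was listed at 0 throughout.

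P450 genes often lie in tandem arrays that arose by duplication. By the deposited positions 44 of the 83 members lay in 16 groups of neighbours at most 10000 bases apart. Of the 12 groups with at least 2 tested genes, 4 had all of them below 0, 1 had all above and 7 were mixed. The largest group, on 2R from 10759177 to 10776514, holds Cyp6a22, Cyp6a17, Cyp6a23, Cyp6a19, Cyp6a9, Cyp6a20 and Cyp6a8. Its 6 tested genes covered almost the whole range, from Cyp6a8 at -3.44 through Cyp6a9 at -0.027 (SE 0.22) to Cyp6a20 at 0.86. In the group of Cyp4ac1, Cyp4ac2 and Cyp4ac3 on 2L, the differences were -0.62 (SE 0.48), -1.20 and 0.50. Cyp4p1, Cyp4p2 and Cyp4p3 on 2R were at -0.42 (SE 0.41), -0.79 (SE 0.50) and 0.77. In both arrays neighbours stood on different sides of control by these values. With no scaling between groups Cyp4ac3 and Cyp4p3 turned to -0.75 and -0.46. Groups of Cyp4ac1, Cyp4p1 and Cyp4p2 overlapped. Without MJDtr-78Q library 1 Cyp4ac1 and Cyp4p1 were at 0.014 and 0.11. By arm, 2R held 28 of the tested members and 5 of the 8 lower ones.

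Of 5 genes for the electron-donating partners, 0 passed the test and 4 were below 0, with a median of -0.19. Cpr, the reductase that serves P450 enzymes of the endoplasmic reticulum, was at 10.77 and 10.63 in the controls, against 10.90 and 10.87 with MJDtr-78Q (difference 0.18, SE 0.22), just above the controls in both libraries. Cyt-b5, another electron donor there, differed by -0.19 (SE 0.36). On the mitochondrial side the ferredoxin reductase gene dare differed by -0.23 (SE 0.23), without overlap, and the ferredoxin genes Fdx1 and Fdx2 by -0.29 (SE 0.30) and -0.10 (SE 0.35). Heme synthesis and breakdown, which set the supply of the cofactor, had 8 genes tested, of which 0 passed and 6 were below 0, with a median of -0.11. The heme oxygenase gene Ho, which breaks heme down, was at 9.17 and 9.04 in the controls, against 9.54 and 10.10 with MJDtr-78Q (difference 0.72, SE 0.29). Both libraries were above the controls, as for 14% of all tested genes. Its deposited values, with no scaling between groups, were 9.74 and 9.62 in the controls, against 8.97 and 9.52 with MJDtr-78Q. Those of Cpr were 11.37 and 11.23 in the controls, against 10.29 and 10.26, so both genes turned.

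A list of 6 P450 genes of ecdysone synthesis that carry names outside the Cyp series was low in these heads, with 2 tested and 0 passing. The gene shd, whose product turns ecdysone into its active form, was at 3.64 and 2.22 in the controls, against 4.73 and 4.55 with MJDtr-78Q (difference 1.71, SE 0.63, limma adjusted p = 0.824), with both MJDtr-78Q libraries above both controls by more than 2-fold in the mean. The deposited values of shd, with no scaling between groups, were 4.20 and 2.75 in the controls, against 4.12 and 3.95 with MJDtr-78Q, and overlapped. Phantom (phtm) differed by 0.070 (SE 0.53). The genes spo, spok, dib and sad were too low to test, with no value above 2.61.

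Among 12 regulators of P450 genes or of hormone and xenobiotic responses, 0 passed the test, 10 were above and 2 below 0, with a median of 0.12. Over all tested genes 53.4% were below 0. Much of this count came from MJDtr-78Q library 1. There cnc, EcR, Met, ss and tgo were above the control mean, and in library 2 they were below it. The reverse held for usp and Hr38. Only Keap1, Hr96 and gce were above it in both libraries. The cap-and-collar factor cnc, which activates detoxification genes, was at 9.65 and 9.32 in the controls, against 10.52 and 9.43 with MJDtr-78Q (difference 0.50, SE 0.43), and its inhibitor Keap1 differed by 0.21 (SE 0.24). Its partner maf-S differed by -0.54 (SE 0.42). The xenobiotic nuclear receptor Hr96 differed by 0.10 (SE 0.22) and the ecdysone receptor EcR by 0.15 (SE 0.35). Groups of cnc, maf-S, Hr96 and EcR overlapped.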

How the data were processed

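Poly(A) RNA of 4 head libraries, 2 control and 2 MJDtr-78Q by their titles, was made into stranded libraries per the labels' protocols. Per the submitters' processing notes, tools included HTSeq 0.6.1, Bowtie, TopHat2 2.0.10, cutadapt 1.2.1 and CASAVA 1.8.2, their roles unstated. For build, annotation and normalization upstream: not given in the sources used here. Read from the numbers themselves, the deposited log2 values are of a count plus 1, quantile normalized within each group but not between groups. Counts cannot be recovered, so counting error is unknown. The 4 libraries were quantile normalized together, genes with a back-transformed mean of at least 10 were kept, and the test was limma (version 3.58.1, R version 4.3.3; intensity trend, two-sided, Benjamini-Hochberg, threshold 0.05). The fit was tested on simulated counts whose spread was set in advance rather than taken from these libraries. That test therefore does not measure the power of the fit in these data. Of the table's IDs 15002 matched a FlyBase symbol and 680 did not. Positions are those of the deposited table, of another build than the Ensembl annotation (assembly BDGP6), from which exonic lengths and overlaps were taken by FlyBase ID. No position was converted. Of the listed genes, FeCH and FASN3 were not analysed here.

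Members, lists and tests were chosen with earlier results of these data known. Named genes were the 10 highest and 10 lowest differences without overlap, the most abundant per length and most different gene of families with at least 3 tested genes, the 5 most abundant genes, and the redox and ecdysone lists. Other genes were named after their values were seen. Alternatives were other scalings, pseudocounts of 0.5 and 5, other filters, other variance models, the replicate number as a block, a length correction and each library left out.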

Additional observations from a re-analysis of the deposited data

How the results depend on the processing

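With no scaling between groups the depth difference enters every value. Then 48 of 65 P450 genes passed the adjusted threshold, as did 6794 of all 9091 genes tested, 49 were lower and 0 higher by 2-fold or more, the median difference was -1.32, and family 28 relative to all genes turned to 0.036. Differences of Cyp4d8, Cyp4e3, Cyp49a1, Cyp9f3, Cyp6a20, Cyp4p3, Cyp6t2Psi, Cyp4ac3 and Cyp4aa1 turned to -0.020, -0.066, -0.21, -0.37, -0.31, -0.46, -0.46, -0.75 and -0.81. That of Cyp4s3 fell to 0.060. Family 28, at -0.021, also turned to 0.043 with scaling by the median of gene ratios and 0.043 with upper-quartile scaling, and to 0.031 with length correction, alone or with the replicate block. With no filter on low values 5 of 79 P450 genes were higher by 2-fold or more with groups apart, against 3.83% of all genes. Lower were 10, against 3.94%. The higher genes added were Cyp4g1 and Cyp6a16, both near the floor.

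With the replicate number as a block 12 P450 genes passed the adjusted threshold (limma), 9 lower and 3 higher, and 387 of all 9049 genes; with the block and length correction 15 passed, 9 of them lower, and 623 of all 8641 genes. Nothing in the labels ties equal numbers to a common batch. Deviations of same-numbered libraries from their group means correlated at 0.54 over all genes, with only 2 pairs.

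With a library left out, the lone library being assumed to vary like the others, 0 P450 genes passed. The count lower by 2-fold or more ran from 3 to 15 and the count higher from 3 to 5. The higher genes were not the same each time. Of Cyp4s3, Cyp4d8 and Cyp4e3, only Cyp4e3 stayed among them without control library 2, and only Cyp4s3 and Cyp4d8 without control library 1. The median difference ran from -0.31 to 0.045, and relative to all genes from -0.28 to 0.055, both highest without MJDtr-78Q library 1. Family 4 relative to all genes ran from -0.15 to 0.10 and family 28 from -0.35 to 0.22. Cyp4g15 ran from -0.41 to 0.079, Cyp12a4 from -0.56 to 0.15, Cyp28d1 from -0.47 to 0.18 and Cyp28c1 from -0.43 to 0.094. The causes were not tested. Under scaling by the median of gene ratios, upper-quartile scaling, other pseudocounts, filters and variance models and length correction, the named genes tested there kept their direction and 0 P450 genes passed. Depth per gene is unknown, which limits what can be said of the 13 tested members with a mean under 50.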
